A study of Mus musculus with 4 samples.

Results

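P-IV and P-III are the CD301b-positive and the CD301b-negative part of one gate, the Ly6C-low, MHC II-positive cells among CD115hi splenocytes, and were compared here within mice treated with granulocyte macrophage-colony stimulating factor (GM-CSF). Members were taken from the subset labels deposited for each cell: 313 P-IV and 126 P-III cells, 439 of the 11631 cells of the series. The supplement of the study counts fewer P-IV and more P-III cells than the deposited labels give over both libraries. The members used here are therefore not exactly those of its figures. The study names P-IV GM-CSF-induced dendritic cells (GMiDCs) and P-III pre-GMiDCs. It profiled FACS-sorted CD11b+ splenocytes by CITE-seq, in which antibodies with DNA tags (antibody-derived tags, ADT) are read out together with a cell's RNA, and each captured RNA molecule is counted once by its unique molecular identifier (UMI). All P-III and P-IV cells compared came from 1 library of GM-CSF-treated mice, given 3 once-daily subcutaneous injections of 10 µg, with cells taken 24 h after the last and mice of 8 to 12 weeks in the methods. A second library held cells in steady state, without GM-CSF. How many animals stand behind a library is not given in the sources used here, so cells were not treated as replicates, no test was made, and the exact intervals given below cover counting error only.

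CD301b is the protein of Mgl2, a C-type lectin that binds galactose-type sugars and marks dendritic cells (DCs) and macrophages linked to type 2 immunity. CD115 is the receptor for macrophage colony-stimulating factor, encoded by Csf1r, and is carried by monocytes and many of their descendants. Under GM-CSF or inflammation, monocytes can take on MHC II, CD11c and other features of DCs. Genes of the blood monocyte such as Ly6c2 and Plac8 can fall along that course.

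The gate itself was visible in the tags. CD301b tag counts ran from 1 to 20 in P-III (median 10) and from 21 to 2853 in P-IV (median 230), without overlap, which is the rule and not a finding. CD115 tag medians were 107 and 115 in P-III and P-IV, and those of Ly6C 16.5 and 18. The remaining tags were higher on P-IV cells: the CD11c median was 180 in P-III and 299 in P-IV, and the MHC II median 312 and 511. Of the P-IV cells, 83.4% lay above the P-III median for CD11c and 83.1% for MHC II, and the ranges overlapped widely for both (CD11c from 71 to 759 in P-III and from 70 to 2347 in P-IV). In P-I, the Ly6C-positive monocytes of the same library (187 cells), the CD301b median was 14, close to that of P-III.

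All UMIs of a subset were added up, 2248291 for P-IV and 739569 for P-III, and levels are given as CPM (counts per 1000000 UMIs). Median UMIs per cell were 6883 and 5866, and median shares of mitochondrial UMIs 4.17 and 4.27%. Ratios are P-IV to P-III with 0.5 counts added to each sum, for the 6216 genes with at least 50 UMIs over both subsets. Among these genes, 119 (1.91%) were at least 2-fold higher in P-IV and 63 (1.01%) at least 2-fold lower, and the interval of the ratio left out 1 for 115 and 63 of them. The median log2 ratio over all genes tested was -0.01.

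**Figure D1:**
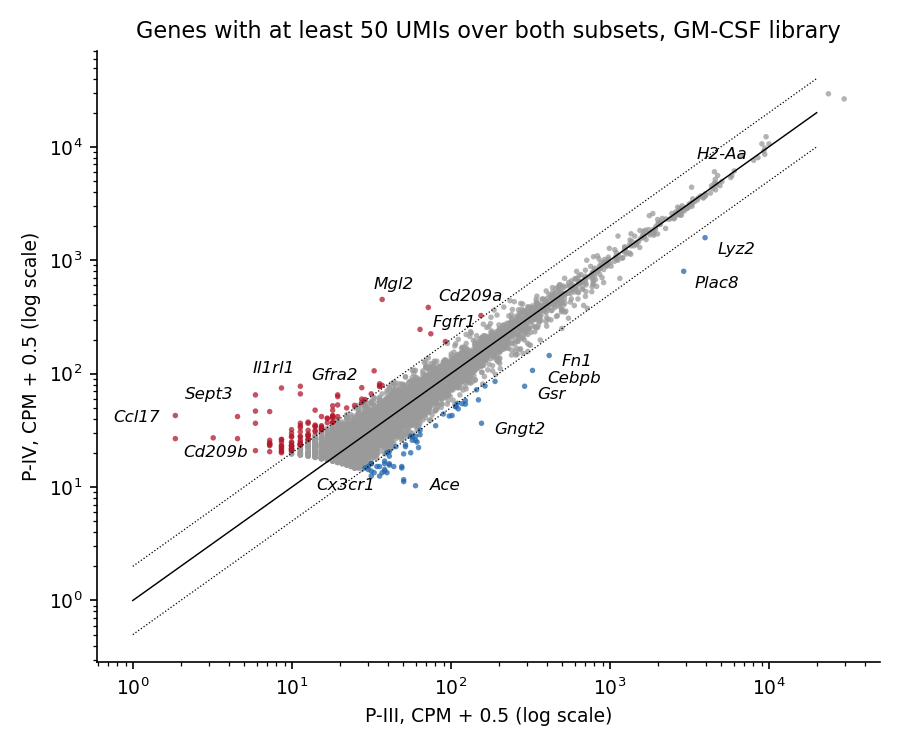
Level of each gene in P-III (horizontal) and P-IV (vertical), both as CPM of summed UMIs plus 0.5 on log scales, in the GM-CSF-treated library. Points are the genes with at least 50 UMIs over both subsets and no cell with more than 25% of them, red at a ratio of 2 or more and blue at 0.5 or less, with equality as a solid line and 2-fold as dotted lines. Mgl2, Cd209a and Fgfr1 lie farthest above the line among the better counted genes, and Plac8 and Lyz2 lie below it, at 799 and 1581 CPM in P-IV.

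The 4 marker genes of P-IV were all higher in P-IV. All 4 are in the study's list of P-IV genes, which was chosen on these libraries, so their direction is not independent evidence. Mgl2, the gene of the gating antigen, had 1013 UMIs in P-IV and 27 in P-III, or 451 CPM (423 to 479) against 36.5 CPM (24.1 to 53.1), a ratio of 12.1 (8.43 to 18.8) that describes the gate. Its RNA was seen in 78.3% of P-IV cells and 11.1% of P-III cells, with at most 23 and 4 UMIs in a cell, and in 2.91% of the neutrophils of the same library, which should lack it. P-I cells stood at 25.1 CPM of Mgl2.

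Cd209a, a mouse DC-SIGN family lectin found on monocyte-derived DCs, stood at 383 CPM (358 to 410) in P-IV and 71.7 CPM (53.7 to 93.7) in P-III, a ratio of 5.30 (4.05 to 7.20). It was detected in 55.0% of P-IV cells (49.3 to 60.6) and 15.1% of P-III cells (9.33 to 22.5). With every cell thinned to 1000 UMIs, the shares were 24.8 and 6.45%, and 0.227% in neutrophils.

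Fgfr1, a receptor for fibroblast growth factors, stood at 245 CPM in P-IV (225 to 266) and 63.6 CPM in P-III (46.7 to 84.5), a ratio of 3.82 (2.86 to 5.31). The shares of cells with a UMI of Fgfr1 were 69.0 and 22.2%. Il1rl1, the gene of the IL-33 receptor ST2, had 167 UMIs in P-IV and 6 in P-III, a ratio of 8.48 (4.12 to 25.3), and was seen in 35.8 and 4.76% of cells. In neutrophils 1.34% of cells had a UMI of Il1rl1. P-I levels of Cd209a (32.3 CPM) and Fgfr1 (18.6 CPM) were below those of P-III. Il1rl1 stood at 4.30 CPM in P-I, but with only 6 UMIs in P-III its order between P-I and P-III is uncertain.

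The neighbours of Cd209a on chromosome 8 took 3 of the 15 highest ratios. Cd209b had 59 UMIs in P-IV and 1 in P-III (13.05, 3.35 to 779), Cd209d 60 and 2 (7.96, 2.62 to 83.4), and Cd209c 59 and 3 (5.59, 2.11 to 32.3). These genes are paralogs of similar sequence within chr8:3743395-3954746 (GRCm38.p6), and reads may have been divided among copies in counting, so their separate values are uncertain. Cd209b was seen in only 22 P-IV cells, up to 10 UMIs in 1 of them. The 250 bases before the RefSeq start of Mgl2 and of these 4 neighbours are shown because all were among the highest ratios, with motif matches on either strand in capitals: GAGGAA, the core of PU.1 sites (TTCCTC on the other strand), and TTCNNNGAA, the STAT motif.
Mgl2, chr11:70129875-70130124, plus strand: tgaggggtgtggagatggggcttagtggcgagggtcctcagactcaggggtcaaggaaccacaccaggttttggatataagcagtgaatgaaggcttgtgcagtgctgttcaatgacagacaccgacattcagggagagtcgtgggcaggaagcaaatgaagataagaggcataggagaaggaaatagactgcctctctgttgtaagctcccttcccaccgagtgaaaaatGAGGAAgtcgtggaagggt
Cd209a, chr8:3748985-3749234, minus strand: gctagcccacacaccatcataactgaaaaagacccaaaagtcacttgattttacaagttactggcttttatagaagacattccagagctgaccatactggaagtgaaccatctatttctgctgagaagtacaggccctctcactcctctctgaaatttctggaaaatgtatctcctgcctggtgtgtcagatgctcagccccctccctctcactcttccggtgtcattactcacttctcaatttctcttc
Cd209b, chr8:3926842-3927091, minus strand: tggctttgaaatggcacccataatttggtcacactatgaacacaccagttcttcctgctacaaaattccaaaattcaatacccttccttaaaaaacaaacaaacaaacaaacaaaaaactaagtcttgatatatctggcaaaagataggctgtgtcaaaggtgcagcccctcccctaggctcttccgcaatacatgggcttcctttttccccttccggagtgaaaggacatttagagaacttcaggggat
Cd209d, chr8:3878549-3878798, minus strand: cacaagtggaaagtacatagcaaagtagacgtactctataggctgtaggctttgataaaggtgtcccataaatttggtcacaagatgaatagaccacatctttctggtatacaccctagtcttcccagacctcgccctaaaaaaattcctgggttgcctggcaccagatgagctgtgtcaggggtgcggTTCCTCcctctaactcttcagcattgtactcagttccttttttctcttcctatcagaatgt
Cd209c, chr8:3954747-3954996, minus strand: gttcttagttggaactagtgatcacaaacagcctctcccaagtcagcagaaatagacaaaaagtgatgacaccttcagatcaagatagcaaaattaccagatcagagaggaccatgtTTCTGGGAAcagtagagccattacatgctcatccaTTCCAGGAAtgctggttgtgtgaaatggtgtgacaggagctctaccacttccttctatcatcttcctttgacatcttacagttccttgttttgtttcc
A match to GAGGAA was present before Mgl2 and Cd209d and absent before the others, while 23.3% of all 32851 promoters in the RefSeq table held one in 250 bases before the start. TTCNNNGAA matched 2 times before Cd209c and in no other window shown, and is held by 7.02% of promoters. The other motifs searched, TGANTCA (AP-1, in 6.75% of promoters) and the IRF motif (GAAA, a gap of 2 bases, GAAA, in 2.98%), had no match in these 5 windows.

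The other genes of the 15 highest ratios were of mixed kinds. Ccl17, a chemokine that attracts CCR4-bearing T cells, had the highest ratio, 20.9 (5.48 to 1247), on 95 UMIs in P-IV and 1 in P-III. It was seen in 16.3% of P-IV cells, at up to 16 UMIs in a cell, and had 0 UMIs in P-I, which allows up to 2.15 CPM (3 counts). Gfra2, a co-receptor for neurturin, stood at 76.9 CPM in P-IV and 10.8 in P-III, a ratio of 6.71 (3.53 to 16.7). Sept3, a septin, had a ratio of 10.6 (4.56 to 44.4). Tcea3, a transcription elongation factor, had 8.79 (3.38 to 50.3) and Ccnd1, cyclin D1, 6.19 (2.81 to 21.3). Pianp (7.64), the receptor P2ry10 (5.96) and the transcript 9530059O14Rik (5.75) made up the rest. In P-III these 8 genes had 1 to 8 UMIs each, so the upper ends of their intervals are wide.

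Beyond the ranking, genes often listed with natural killer cells were also higher, and were picked after their values were seen. Klrk1, the gene of NKG2D, stood at 62.3 CPM in P-IV and 18.9 in P-III (3.19, 1.90 to 6.17), and Klrd1, the gene of CD94, at 36.0 and 10.8 CPM (3.15, 1.61 to 7.98). Of 8 natural killer cell markers, Ncr1, Gzma, Gzmb, Prf1, Nkg7 and Eomes were at 0 UMIs in P-IV as in P-III, and the list summed to 4.89 CPM in P-IV and 1.35 in P-III.

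Lower in P-IV were genes of blood monocytes, among others. Plac8, expressed in Ly6C-positive monocytes, had the largest counts among the 15 lowest ratios: 799 CPM for P-IV (762 to 837), 2915 for P-III (2793 to 3041) and 4561 for P-I (4450 to 4675). Its ratio was 0.274 (0.257 to 0.292), and 63.6% of P-IV against 92.9% of P-III cells had a UMI of it. Gngt2, a G protein gamma subunit, stood at 36.0 CPM for P-IV, 156 for P-III and 298 for P-I, a ratio of 0.232 (0.172 to 0.311). For both genes the 3 levels did not overlap within counting error and P-III lay between P-I and P-IV.

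The lowest ratio was that of Ace, angiotensin-converting enzyme, at 0.166 (0.0939 to 0.280), with 9.79 CPM in P-IV and 59.5 in P-III. With the ratio combined over the RNA clusters (Mantel-Haenszel weights), the log2 ratio of Ace was -0.19 in place of -2.59, so it was no longer past 2-fold. The same held for Plac8 (-0.85), Il1b (-0.87), Cebpb (-0.99) and F11r (-0.99). Cx3cr1, the fractalkine receptor of Ly6C-low monocytes, followed at 0.215 (0.122 to 0.366), and F11r, the junctional adhesion molecule A, at 0.224 (0.128 to 0.379). Gsr, glutathione reductase, stood at 76.9 CPM in P-IV and 291 in P-III (0.265, 0.215 to 0.325), with 36.1 and 74.6% of cells positive. Cebpb, a myeloid transcription factor, stood at 106 and 326 CPM (0.326, 0.272 to 0.392). Fn1, fibronectin, stood at 144 and 415 CPM (0.347, 0.296 to 0.407), with up to 52 UMIs in a cell of either subset. Il1b (0.302), Hpgd (0.293), Gpr65 (0.329), Gm9733 (0.339), Sephs2 (0.341) and Tgfbr1 (0.352) were also among the 15 lowest, with 26 to 36 UMIs each in P-III. P-I levels were above those of P-III for 12 of the 15 genes, and below them for Hpgd and Tgfbr1 among others.

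**Figure D2:**
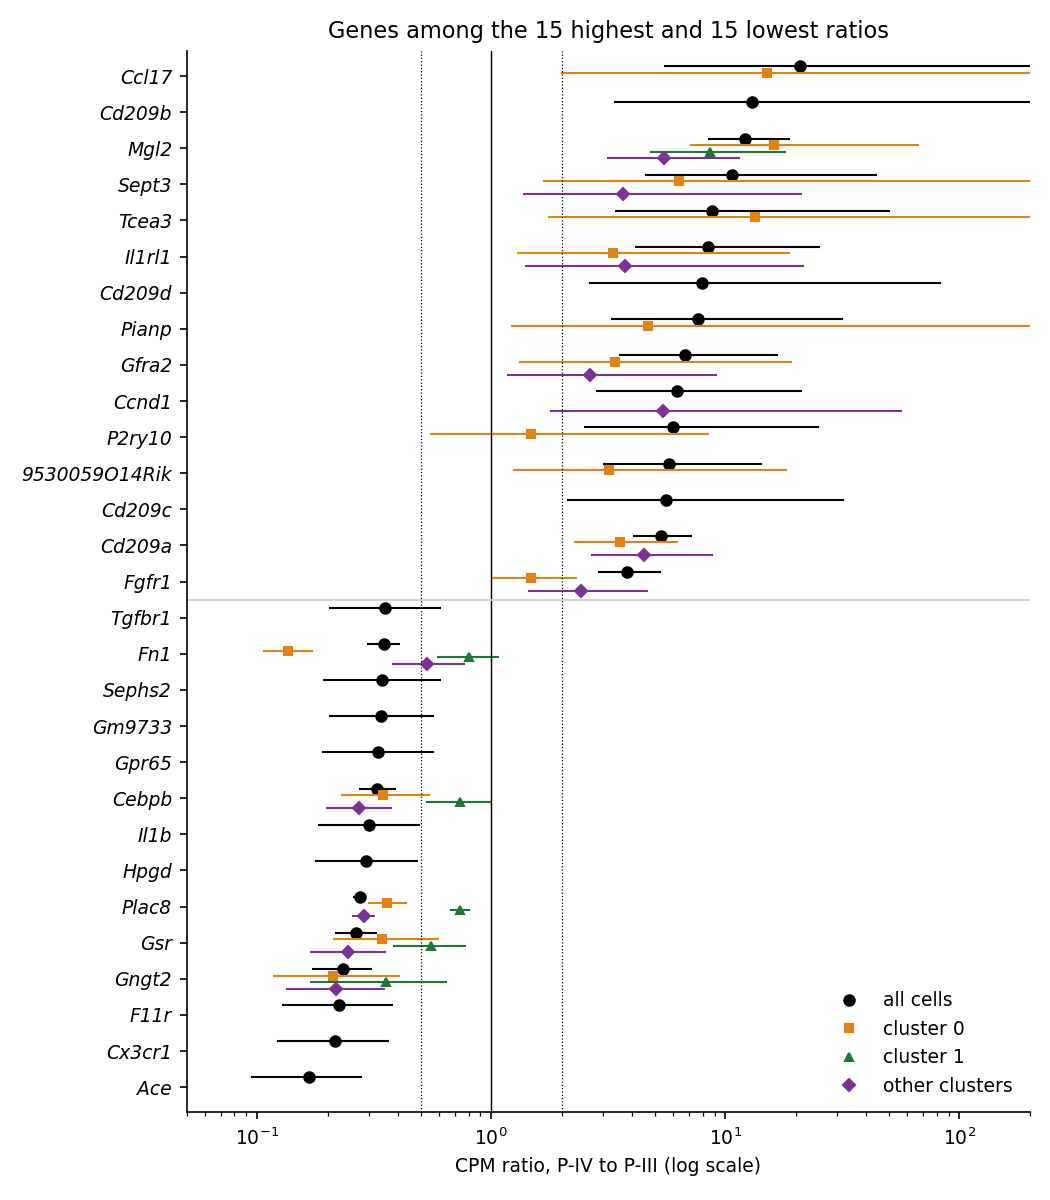
CPM ratio of P-IV to P-III (horizontal, log scale) for the genes named above among the 15 highest and 15 lowest, in all cells (circles), cluster 0 (squares), cluster 1 (triangles) and all other clusters (diamonds), where a gene had at least 50 UMIs. Lines are exact 95% intervals for counting error, cut at the right edge of the plot, and dotted lines mark 2-fold; Plac8, Cebpb, Gsr and Fn1 sit closer to 1 in cluster 1 than in all cells.

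By gene list, the 13 measured C-type lectins were split rather than shifted. Mgl2, Cd209a, Cd209b and Cd209d were at least 2-fold higher and Clec4a1 (0.472, 0.373 to 0.602) at least 2-fold lower, and the median log2 ratio was 0.03. Over all genes tested, 1.91% were at least 2-fold higher and 1.01% at least 2-fold lower. Clec10a, the closest paralog of Mgl2 and the gene of CD301a, stood at 122 CPM in P-IV and 126 in P-III, a ratio of 0.966 (0.763 to 1.24) whose interval leaves out a 2-fold difference either way. Clec4b1 was higher (1.93, 1.51 to 2.54), and Mrc1 (0.515), Clec4a3 (0.604) and Clec12a (0.631) were lower.

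Of 12 measured genes of alternative activation and the type 2 response, Ccl17, Mgl2 and Il1rl1 were at least 2-fold higher and Chil3 (0.382, 0.241 to 0.610) at least 2-fold lower. The shares over all genes tested were 1.91 and 1.01%. Mgl2 is the gene of the gating antigen and Il1rl1 is in the study's list chosen on these libraries, so neither is independent evidence. Cd200r1 (1.64, 1.23 to 2.28), the receptor for CD200, and the leukotriene receptor Cysltr1 (1.52, 1.15 to 2.08) were moderately higher. Of other receptor genes in the list, Il4ra, a chain of the IL-4 receptor, stood at 0.863 (0.549 to 1.43), Il13ra1 at 0.749 (0.560 to 1.02) and Crlf2, part of the TSLP receptor, at 1.07 (0.831 to 1.41).

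RNA of the MHC class II presentation genes was modestly higher in P-IV over all cells. Within clusters the median log2 ratio of this list was 0.14 in cluster 0, 0.04 in cluster 1 and 0.27 in the others. In clusters 0 and 1, 0 of its measured genes were past 2-fold. Of 13 measured genes 11 had a ratio above 1 (median log2 ratio 0.23), led by H2-Oa (3.14, 1.54 to 8.60) and H2-DMb2 (2.07, 1.61 to 2.73), whose products steer peptide loading. H2-Aa itself stood at 5589 CPM in P-IV and 4762 in P-III (1.17, 1.13 to 1.22). The MHC II tag medians were 511 and 312, but these are raw counts per cell of a gating tag and not on the scale of CPM. The invariant chain gene Cd74 stood at 1.18 (1.14 to 1.21), the class II transactivator Ciita at 1.32 (1.09 to 1.61), and the protease genes Ctss (0.871, 0.801 to 0.949) and Lgmn (0.724, 0.552 to 0.963) below 1.

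Most DC genes stood within 2-fold. The median log2 ratio of this list was 0.29 over all cells, 0.04 in cluster 0, 0.35 in cluster 1 and 0.25 in the others. Zbtb46, a transcription factor of conventional DCs, was the only one of 15 measured genes at or above 2-fold (2.40, 1.29 to 5.42), on 76 UMIs in P-IV and 10 in P-III. Cd24a (1.68, 1.41 to 2.03), Dpp4 (1.36, 1.05 to 1.81) and Itgax (1.33, 1.14 to 1.56) were higher, and Irf8 was lower (0.654, 0.548 to 0.783). Flt3, the receptor of FLT3 ligand, fell short of the minimum with 26 UMIs in P-IV and 1 in P-III. The 6 markers of cDC1 summed to 913 CPM in P-IV and 871 in P-III, with a UMI in 97.1 and 93.7% of cells, of which Xcr1 had 3 UMIs in P-IV and 0 in P-III. The 6 markers of plasmacytoid DCs summed to 100.08 and 101 CPM, with a UMI in 47.3 and 44.4% of cells. Siglech, Ccr9, Klk1 and Cox6a2 were at 0 in both. Pacsin1 was also at 0 in P-III, so the whole P-III sum came from 1 gene. In the cDC1 list and in the plasmacytoid DC list, only 1 gene reached the minimum of UMIs. Each of these sums and shares therefore rests mostly on 1 gene and does not show expression of the marker set.

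Monocyte and macrophage genes were lower in P-IV on balance. Of 10 measured classical monocyte genes, 3 (Plac8, Fn1, Chil3) were at least 2-fold lower, against 1.01% of all genes tested, and none at least 2-fold higher. The median log2 ratio was -0.42 over all cells, -0.18 in cluster 0, -0.14 in cluster 1 and -0.53 in the others. Of the 8 genes measured in each, 2, 0 and 1 were at least 2-fold lower. Csf1r, the gene of the CD115 tag, stood at 203 CPM in P-IV and 273 in P-III (0.742, 0.628 to 0.881), where the tag medians were 115 and 107. The lowest CD115 tag count was 84 in both subsets, so these tag medians are bounded by the CD115hi gate. Ly6c2 had 4 and 2 UMIs, and 130 CPM in P-I. Of 8 measured non-classical monocyte genes, 5 (Ace, Cx3cr1, Nr4a1, Pou2f2, Treml4) were at least 2-fold lower, against 1.01% of all genes tested. Their list had a median log2 ratio of -1.18, and Cd36, a scavenger receptor, was higher (1.97, 1.26 to 3.35). The median of this list was -0.51 combined over clusters, and within cluster 0 it was -0.35, with 0 of 3 measured genes past 2-fold. In cluster 1 it was -0.50 (2 genes measured) and in the other clusters -1.21 (3 measured). These other clusters include cluster 4, whose 6 cells were all P-III. Of the macrophage genes, Lyz2 (lysozyme 2) was at least 2-fold lower. Its RNA stood at 1581 CPM for P-IV, 3971 for P-III and 9124 for P-I, while Adgre1, the gene of F4/80, stood at 0.975 (0.786 to 1.22).

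Most measured genes of GM-CSF signalling stood within 2-fold. Ratios were 1.21 (1.003 to 1.48) for the receptor chain Csf2ra, 0.887 (0.755 to 1.05) for Csf2rb, 1.06 (0.726 to 1.63) for Stat5a and 0.965 (0.689 to 1.395) for Stat5b, with Jak2 at 1.48 (1.12 to 2.03). Cebpb was the only one of 12 measured genes past 2-fold. Ratios of the list ran from 0.326 to 1.59, and the interval lay above 1 for 2 genes and below 1 for 4. The list's median log2 ratio was -0.11 over all cells, -0.27 in cluster 0, -0.23 in cluster 1 and -0.27 in the others. Of the 20 measured lysosomal genes, Lamp1 (0.560, 0.495 to 0.635), Lamp2 (0.605, 0.505 to 0.727) and Ctsb (0.654, 0.568 to 0.755) were lower, and the median log2 ratio of the list was -0.18.

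Interferon-induced genes had a median log2 ratio of -0.57 over 11 measured genes in all cells, with Rtp4 (0.476, 0.317 to 0.726) past 2-fold. That lower level was not seen within clusters, where the median was 0.03 in cluster 0, 0.14 in cluster 1 and -0.01 in the others, nor combined over clusters (-0.09), and with a minimum of 20 UMIs it was -0.03. Ifitm3 stood at 692 CPM in P-IV and 1156 in P-III (0.598, 0.550 to 0.651). Of 7 measured inflammatory genes, 5 had a ratio below 1, among them Il1b, Tlr2 (0.575, 0.380 to 0.890) and Nfkbia (0.741, 0.617 to 0.896), and 2 above 1, Il18 (1.38, 0.765 to 2.82) and Myd88 (1.01, 0.797 to 1.31). A published list of P-IV genes had been chosen on the same libraries and is not independent evidence. Of its 32 genes, 11 were at least 2-fold higher in P-IV than in P-III, against 1.91% of all genes tested, and none at least 2-fold lower. Ratios ran from 0.92 for Dok2 to 12.1 for Mgl2.

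**Figure D3:**
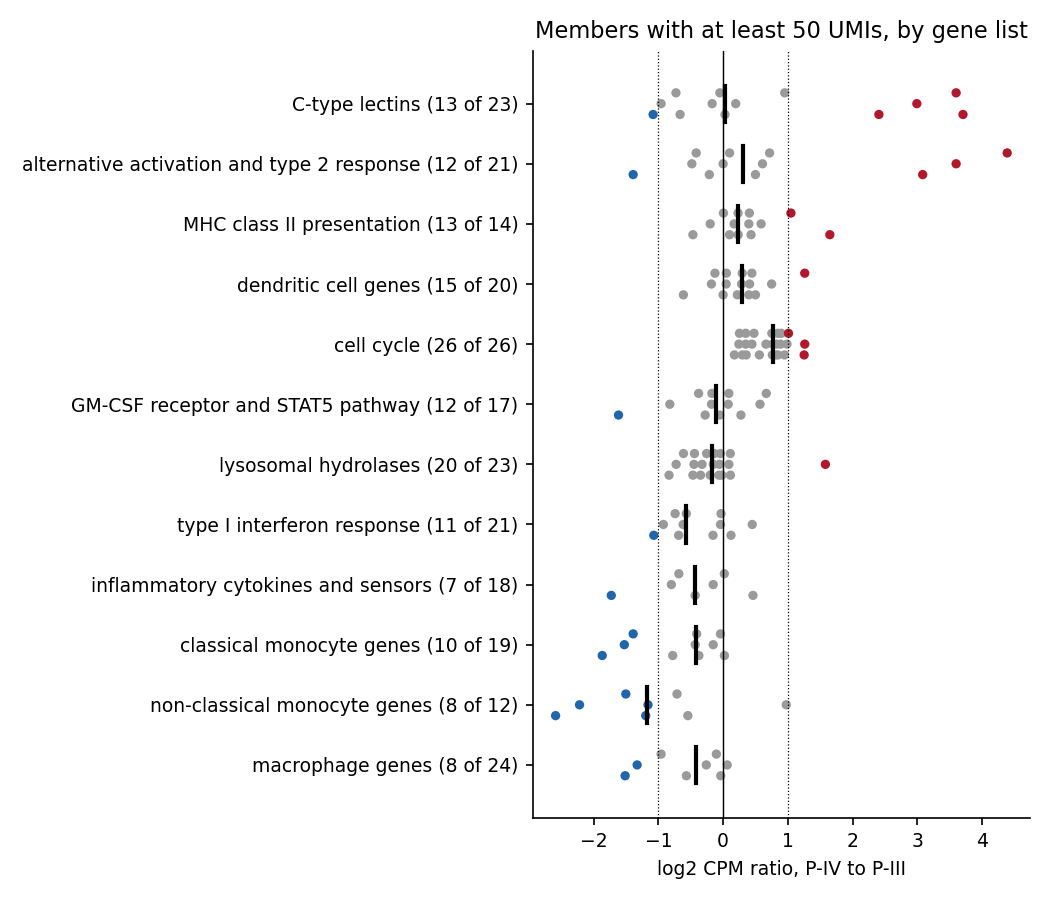
Log2 CPM ratio of P-IV to P-III (horizontal) for each measured member of 12 gene lists, with the number measured of the number listed. Each point is a gene, red at 1 or more and blue at -1 or less, and bars are list medians, which run from -1.18 for non-classical monocyte genes to 0.76 for cell cycle genes.

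P-III and P-IV cells lay in the same RNA clusters in different shares. Cluster 0 held 53.4% of P-IV cells (47.7 to 59.0) and 15.9% of P-III cells (9.97 to 23.4), and cluster 1 held 13.1% (9.57 to 17.3) and 56.3% (47.2 to 65.2). Cluster 8 held 15.02 and 6.35%. All 6 cells of cluster 4 among the 439 were P-III cells. P-III cells in cluster 0 had a CD301b median of 9.5 and P-IV cells in cluster 1 one of 67, against 331 for P-IV cells in cluster 0. The pooled ratios therefore hold both the mix of clusters and the difference within them, and the comparison was repeated within cluster 0 (167 P-IV and 20 P-III cells) and cluster 1 (41 and 71 cells).

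**Figure D4:**
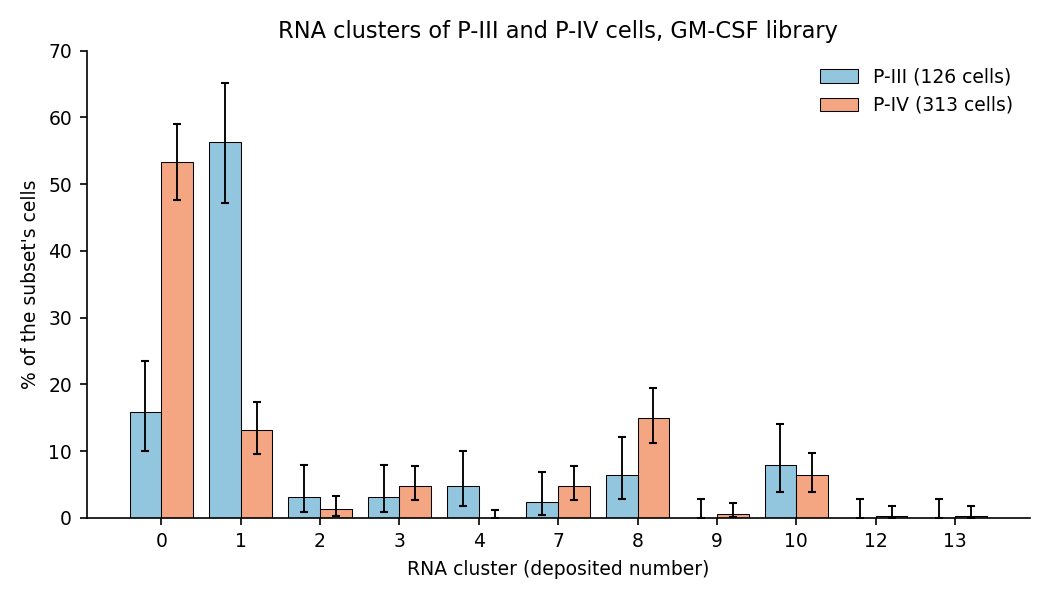
Share of P-III (blue) and P-IV cells (orange) of the GM-CSF-treated library in each deposited RNA cluster, in percent of the subset's cells. Error bars are exact binomial 95% intervals, and clusters 0 and 1 show the shares 15.9 and 53.4%, and 56.3 and 13.1%, for P-III and P-IV.

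Within cluster 0, 183 of 3680 genes (4.97%) were at least 2-fold higher in P-IV and 65 (1.77%) at least 2-fold lower. P-III had 123248 UMIs there, and the interval left out 1 for 65 and 46 of them. Mgl2 had a ratio of 16.2 (7.08 to 67.0), Cd209a of 3.54 (2.25 to 6.29), Il1rl1 of 3.32 (1.28 to 19.0) and Gfra2 of 3.38 (1.31 to 19.3), while Fgfr1 stood at 1.47 (1.01 to 2.32). Ms4a4c, a tetraspan membrane protein gene, was not different over all cells (0.967, 0.755 to 1.26) but had 116 UMIs in P-IV and 0 in P-III within the cluster, at least 4.03-fold higher against 3 counts. Ccl17 (72 and 0 UMIs), Tspan3 and Tcea3 (64 and 0 each) completed the 5 highest.

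The 5 lowest in cluster 0 were Fn1, Gngt2, Blvrb, Lpl and Dnajc3. Fn1 stood at 131 CPM in P-IV and 966 in P-III, a ratio of 0.136 (0.106 to 0.174), and Lpl, lipoprotein lipase, at 0.287 (0.225 to 0.373). Blvrb, biliverdin reductase B, stood at 0.235 (0.132 to 0.450) and Dnajc3, a chaperone of the endoplasmic reticulum, at 0.308 (0.188 to 0.539). Plac8 (0.359), Lyz2 (0.352), Cebpb (0.344) and Gsr (0.342) were lower. Mmp12, macrophage elastase, was higher in P-IV over all cells (1.94, 1.62 to 2.35) and lower within cluster 0 (0.717, 0.576 to 0.911), where both subsets held most of it, at 521 and 722 CPM.

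Within cluster 1, 11 of 2015 genes (0.546%) were at least 2-fold higher and 11 (0.546%) at least 2-fold lower. Mgl2 led at 8.62 (4.76 to 18.2), followed by the importin Tnpo3 (2.42, 1.39 to 4.34), Ocstamp (2.33, 1.29 to 4.32), Slc29a3 (2.11, 1.25 to 3.62) and Wdr89 (2.10, 1.20 to 3.72). Lowest were Man2a1, a mannosidase of the Golgi (0.242, 0.0876 to 0.505), Sltm (0.339, 0.140 to 0.671), Gngt2 (0.357, 0.169 to 0.649), Thoc2 (0.428, 0.208 to 0.774) and the NF-kappaB inhibitor gene Nfkbia (0.438, 0.249 to 0.709). Gngt2 was the one gene among the 5 lowest of both clusters. Lyz2 stood at 0.956 (0.884 to 1.03) and Plac8 at 0.737 (0.670 to 0.810) in this cluster, both nearer 1 than in cluster 0. Fgfr1 had 37 UMIs in P-IV and 7 in P-III, and Cd209a 26 and 23, below the minimum.

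In the remaining clusters together (105 P-IV and 35 P-III cells), 64 of 3160 genes (2.03%) were at least 2-fold higher and 52 (1.65%) at least 2-fold lower. Mgl2 stood at 5.45 (3.12 to 11.5), Cd209a at 4.48 (2.66 to 8.84) and Fgfr1 at 2.41 (1.44 to 4.68), and Plac8 at 0.286 (0.255 to 0.320). Of the 119 genes called higher over all cells, 43 were measured in cluster 0, where 37 had a ratio above 1 and 21 reached 2-fold. In cluster 1 only 4 were measured, all above 1, and 1 reached 2-fold. Of the 63 called lower, 17 were measured in cluster 0 and 19 in cluster 1, with 7 and 3 at 0.5 or less. These cells are part of the pooled sums, so the counts describe where the pooled difference sits.

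Levels also ran along the CD301b tag within P-IV. P-IV cells were ordered by tag count and cut into 4 bins of 78 or 79 cells. In the first and the last bin (21 to 87 and 604 to 2853 counts), Cd209a stood at 136 CPM (106 to 172) and 593 CPM (532 to 658), Il1rl1 at 11.8 (4.33 to 25.7) and 107 (82.0 to 137), and Gfra2 at 21.6 and 99.9 CPM. Fgfr1 differed less, at 126 CPM in the first bin and 273, 318 and 251 in the others. Ccl17 was nearly level, at 35.4, 46.6, 38.6 and 47.4 CPM. In the other direction, Plac8 stood at 1786 CPM in the first bin and 256 in the last, Lyz2 at 2663 and 977, Fn1 at 256 and 30.5, and Cebpb at 183 and 52.5.

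The first bin of P-IV held 24.1% of its cells in cluster 0 and 32.9% in cluster 1, and the last 65.4 and 3.85%. MHC II tag medians were 457 and 616 in these bins, CD11c 232 and 358.5, and CD115 116 and 118. Median UMIs per cell were 6068 and 7001. Just inside and outside the gate, 44 P-IV cells at 21 to 38 counts stood at 134 CPM of Mgl2 and 77.4 of Cd209a, and 17 P-III cells at 16 to 20 counts at 133 and 33.4 CPM. Plac8 stood at 1896 and 2119 CPM in these cells and H2-Aa at 4727 and 4896. Other genes differed more, Mmp12 at 302 (242 to 374) and 58.4 CPM (23.5 to 120) and Ccl17 at 59.8 and 0. Mki67 was lower on the P-IV side, at 172 (127.5 to 228) and 367 CPM (267 to 493). Of the 44 P-IV cells 20.5% lay in cluster 0 and 25% in cluster 1, and of the 17 P-III cells 5.88 and 64.7%. The lower part of P-III, at 1 to 10 counts, stood at 7.50 CPM of Mgl2 and the upper part, at 11 to 20, at 70.7.

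**Figure D5:**
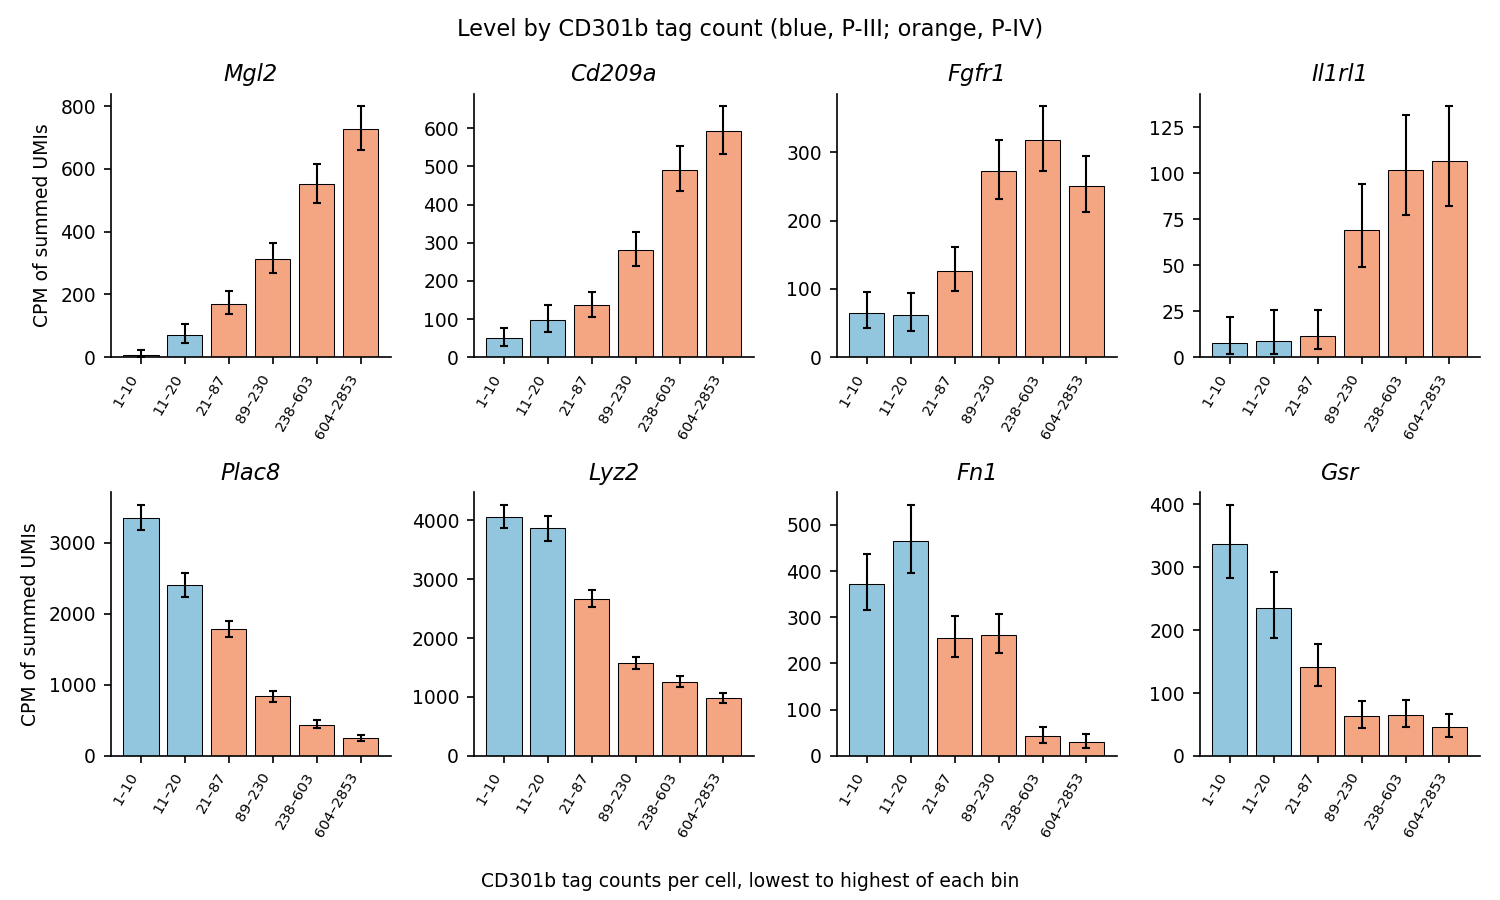
CPM of summed UMIs (vertical, from 0) for 8 genes in cells ordered by CD301b tag count: P-III in a lower and an upper part (blue) and P-IV in 4 bins (orange), with the lowest and highest count of each bin below. Error bars are exact Poisson 95% intervals; Cd209a stands at 136 CPM in the first and 593 in the last bin of P-IV, and Plac8 at 1786 and 256.

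Cell cycle genes were higher in P-IV over all cells, a difference that was smaller within clusters. All 26 genes of the list had a ratio above 1, the interval left out 1 for 18, and the median log2 ratio was 0.76. Tyms, thymidylate synthase, stood at 2.40 (1.29 to 5.42), the replication helicase genes Mcm6 at 2.38 (1.35 to 4.95) and Mcm5 at 2.01 (1.28 to 3.48), and Mki67 at 1.47 (1.18 to 1.88). Clusters 7 and 8, marked by genes of mitosis such as Top2a, held 19.8% of P-IV cells (15.5 to 24.7) and 8.73% of P-III cells (4.44 to 15.1). The median log2 ratio of the list was 0.09 combined over clusters and 0.17 in G1 cells alone (5 genes measured). Outside clusters 0 and 1 it was 0.38, with 21 of 26 genes above 1, and in cluster 1 it was -0.12, with 1 of 4 above 1.

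The deposited phases did not show that difference. Of the P-IV cells 31.0% (25.9 to 36.4) and of the P-III cells 31.7% (23.7 to 40.6) were labelled S or G2/M, made of 54 S and 43 G2/M cells in P-IV and 30 and 10 in P-III. Scored again here on all UMIs, S cells numbered 26 in P-IV and 4 in P-III, and the shares in S or G2/M were 21.4% (17.0 to 26.4) and 11.1% (6.21 to 17.9). At 1000 UMIs per cell they were 35.7 and 36.3%. The share of cycling cells depended on the scoring. G2/M labels alone gave 13.7 and 7.94% as deposited and 13.1 and 7.94% when scored again.

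Markers of other cell types were also summed. The 13 neutrophil markers summed to 247 CPM in P-IV and 274 in P-III, with Elane, Mpo and Cxcr2 at 0 in both, and the B cell markers to 2.22 and 8.11 CPM, with Cd79a, Ms4a1 and Pax5 at 0 in both. The 6 cDC2 markers summed to 28.9 and 14.9 CPM, with Esam at 0 in both, and their part in the differences was not tested. Haemoglobin genes had 1881 UMIs in P-IV and 0 in P-III, 1877 of them in 1 cell of cluster 0, and were kept out of the ranking with Hmox1, Cd63 and Cxcl9, which also had more than 25% of their UMIs in 1 cell. Scrublet called 6 P-IV and 2 P-III cells doublets, and 2 of the 439 cells carried a barcode also found in the other library.

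The same 2 labels existed in steady state but on few cells, 7 P-IV and 12 P-III (54216 and 81265 UMIs). Mgl2 had 1 UMI in the P-IV and 0 in the P-III cells there, Fgfr1 0 and 3, and Cd209a 12 and 14. The 15 genes highest after GM-CSF summed to 443 and 345 CPM, a ratio of 1.28 (0.713 to 2.30), and the 15 lowest to 9020 and 8885 CPM, a ratio of 1.02 (0.903 to 1.14). Plac8 stood at 2933 CPM in P-IV and 2104 in P-III in steady state (1.39, 1.12 to 1.74). Library and treatment cannot be told apart in these values, and the difference between the libraries was not tested.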

How the data were processed

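The data are CITE-seq counts of mouse CD11b+ spleen cells, 1 library per condition. The authors deposited raw UMI counts per gene and tag counts per cell, made with Cell Ranger 3.0.2 on mm10 and CITE-seq-Count, and kept cells with limits on genes and on the percent of mitochondrial UMIs (in P-III and P-IV, 414 to 4318 genes and at most 12.9 percent). Subset, cluster, phase and condition labels were deposited by the authors, as were their S and G2/M scores. The gating, integration and clustering were not repeated here.

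Counts were summed per subset and given as CPM with exact Poisson 95% intervals; ratios used 0.5 added counts, with an exact interval from the binomial share, and shares of cells the exact Clopper-Pearson interval. Genes needed 50 UMIs over both subsets, and 2-fold was the limit for a call. A gene with 0 UMIs can stand at up to 1.33 CPM in P-IV and 4.06 in P-III (3 counts). The sums and intervals were tested on simulated data. Named were the 4 markers, the 15 highest and 15 lowest ratios (no cell with more than 25% of a gene's UMIs), the 5 highest and lowest within clusters 0 and 1, members of the gene lists and the genes of the tags. The members, the gene lists and the alternatives were chosen with earlier results of these data known. Doublets were called with Scrublet in scanpy 1.11.5 on the whole library (186 cells) and left out in 1 alternative. Thinning drew 1000 UMIs per cell (seed 20) and left out 2 cells of each subset with fewer. Phases were scored again with 42 S and 54 G2/M genes. Coordinates and sequences are RefSeq GRCm38.p6, the build of mm10. Of 475 named genes, 470 were matched by symbol, and each of the rest is given by name only. Some genes that the rule names are not reported here. Python 3.11.15, numpy 2.4.6, scipy 1.17.1, pandas 2.3.3 and matplotlib 3.10.9 were used.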

Additional observations from a re-analysis of the deposited data

How the results depend on the processing

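With 1 library per condition no replicate could be left out. No paired analysis was possible because both subsets came from 1 library and no result came from a test. The 119 genes higher and 63 lower in P-IV became 318 and 204 with a minimum of 20 UMIs and 42 and 28 with 100, and 25 and 16 (of 1286 measured) with cells thinned to 1000 UMIs, where sums shrink and fewer genes are measured. Without the top cell of each gene 189 were higher, without cells near the CD301b boundary 183, and outside clusters 0 and 1 64. With steady-state cells added 112 were lower. Combined over clusters 94 and 52 were called, of which 59 and 22 were among the main calls. Within cluster 0, the 183 higher and 65 lower became 473 and 357 with 20 UMIs, 42 and 14 with 100, 25 and 9 when thinned, and 374 and 31 without the top cell. Adding 1 count gave 108 higher, and requiring the interval to leave out 1 gave 65. In cluster 1, the 11 and 11 became 93 and 128 with 20 UMIs, 0 and 0 with 100 (914 measured) and 1 and 4 when thinned. The difference in the share of S or G2/M cells, -0.756 percentage points (P-IV minus P-III), became 10.3 with phases scored again. Where no construction is named, the cause was not tested.

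Of the 30 genes with the highest and lowest ratios, the direction reversed only for Cd209c, at a log2 ratio of -0.078 outside clusters 0 and 1, and all 30 stayed within their interval without doublets, with 1 added count, without the top cell and at most 10% mitochondrial UMIs. Thinned to 1000 UMIs 16 of 30 left their interval, with Cd209d (log2 ratio 0.55), P2ry10 (0.51), F11r (-0.96) and Tgfbr1 (-0.67) no longer past 2-fold. Combined over clusters 12 of 30 left it, with Ace (-0.19), Plac8 (-0.85), Il1b (-0.87), Cebpb (-0.99) and F11r (-0.99) no longer past 2-fold. Without cells near the CD301b boundary 11 of 30 left it. The erythroid and platelet list reversed, to a median log2 ratio of -1.60, without the top cell of each gene. Requiring the interval to leave out 1, the cells outside clusters 0 and 1, the genes' values within clusters 0 and 1 and the new phases were alternatives chosen after seeing the data. Depth limits P-III most: at 739569 UMIs its rarer genes rest on a handful of counts.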

Other observations

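None of 12 measured MHC class I genes was past 2-fold (median log2 ratio -0.02, lowest Psmb10 at 0.882, highest Psmb8 at 1.20), nor any of 13 glycolysis genes (median 0.01), where the lactate exporter Slc16a3 stood at 0.648 (0.455 to 0.941) and hexokinase Hk2 at 0.645 (0.434 to 0.986). The 81 measured ribosomal protein genes (median -0.04) ran from 0.76 to 1.18, and the 13 mitochondrial genes (median -0.02) from 0.83 to 1.12.

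Of 13 measured integrin and adhesion genes none was past 2-fold, with the tetraspanin Cd9 highest (1.37, 1.17 to 1.61) and Itgal lowest (0.610, 0.518 to 0.722). Costimulatory genes were split: Icosl stood at 1.68 (1.04 to 2.97), Cd86 at 1.01 (0.661 to 1.63) and Vsir, an inhibitory ligand, at 0.604 (0.508 to 0.723). In lipid handling the fatty acid transport protein Slc27a3 was past 2-fold (2.70, 1.73 to 4.64), while the fatty acid binding protein Fabp5 stood at 0.601 (0.505 to 0.717) and Lpl at 0.531 (0.446 to 0.634). Among Fc and complement receptors Fcrls was past 2-fold (3.30, 1.97 to 6.39), yet stood at 0.896 (0.510 to 1.85) within cluster 0, and Mt1, a metallothionein, stood at 1.65 (1.30 to 2.15). In stress and immediate early genes Hspa1a (3.40, 1.38 to 14.5) and Hspa1b (2.74, 1.33 to 7.55) were higher on 4 and 7 UMIs in P-III, and Nr4a1 (0.353, 0.225 to 0.554), Klf2 (0.560, 0.476 to 0.662) and Fos (0.605, 0.445 to 0.834) lower. Among chemokines beside Ccl17, Ccl6 stood at 0.695 (0.634 to 0.763), and among chemokine receptors Ccr2 at 0.753 (0.683 to 0.833). Of 7 measured protease and matrix genes 4 had a ratio above 1, Mmp12, Adam19, Adam8 and Timp2, and 3 below 1, Fn1, Htra3 (0.624, 0.482 to 0.815) and Plaur. Their median log2 ratio of 0.26 turned to -0.38 with a minimum of 20 UMIs, -0.24 without cells near the CD301b boundary, -0.16 in G1 cells, -0.02 combined over clusters, and -0.48 within cluster 0, -0.08 within cluster 1 and -0.25 in the others.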
